A study of Mus musculus with 4 samples.

Results

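The proliferin genes Prl2c2 and Prl2c3 encode placental relatives of prolactin, and both were detected in cultured mouse kidney cells. They are 2 of the 17391 genes in the count table. They were chosen by their counts in these same libraries, in which Prl2c2 stood out, so their levels are given as a description, with no test. Drop-seq, which captures single cells in droplets with barcoded beads and counts transcripts from their 3′ ends, was run on Gli1+ kidney cells in primary culture, taken from 12-week-old male mice. Cells with Gli1 are perivascular mesenchymal cells and a source of myofibroblasts in the fibrotic kidney. All cultures spent 2 h in serum-free medium. One library each was then made with no TGF-β (0 h) and after 6 h, 12 h and 24 h in the presence of TGF-β at 1 ng/ml; this cytokine turns mesenchymal cells into myofibroblasts. With 1 library per time point no difference has a replicate check, every interval covers counting error only, and hours with TGF-β cannot be told apart from hours without serum, because no untreated culture was sampled at 6 h, 12 h or 24 h.

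Proliferin is a secreted glycoprotein of the prolactin family. In the mouse it is made in quantity by trophoblast giant cells of the placenta, where it promotes the growth of blood vessels, and it was first found as a transcript that growth factors and serum induce in cultured fibroblasts. It carries mannose 6-phosphate and binds the receptor encoded by Igf2r, and AP-1 and the glucocorticoid receptor are known to act on its promoter.

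The libraries differed in depth and in content. They held 192, 658, 1120 and 1328 barcodes and 106826, 778793, 5687966 and 6166324 counts at 0 h, 6 h, 12 h and 24 h, with a median of 489.5, 313.5, 3815.5 and 3379 counts per barcode. No barcode was shared between libraries. Against its label, the 0 h library carried tubule rather than mesenchymal transcripts. All 14 proximal tubule markers had a count there, with a sum of 17589 CPM (CPM is counts scaled to 1000000 per library), and 4 of 10 mesenchymal markers had one, with a sum of 56.2 CPM. Pdgfrb, Col1a1, Col3a1, Dcn, S100a6 and Sparc were the mesenchymal markers at 0 in the 0 h library. Gli1 was among the 12 mesenchymal markers sought, of which 10 are in the count table, and its own counts are not given here. In the 6 h, 12 h and 24 h libraries the mesenchymal markers summed to 14053, 15219 and 14380 CPM and the proximal tubule markers to 2.57, 1.93 and 3.08 CPM. Distal tubule markers summed to 3651 CPM at 0 h and to 1.28, 1.05 and 0.973 CPM in the treated libraries, in time order. The comparisons that follow are therefore mostly among the treated libraries, and the part that cell content has in any difference from 0 h was not tested.

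Both genes lie on chromosome 13 of mm10 (GENCODE M21), on the minus strand. Prl2c2 (ENSMUSG00000079092.4) spans 12996125 to 13005383 and Prl2c3 (ENSMUSG00000056457.6) spans 12790816 to 12800079. Each transcript has 5 exons and 675 coding bases, in 842 transcript bases for Prl2c2 and 857 for Prl2c3. Over the 842 bases that align, the transcripts differ at 4 positions, which is 99.5% identity. The table also holds 2 further proliferin paralogs on chromosome 13, Prl2c5 at 13182715 to 13191923 and Prl2c1 at 27849342 to 27857788, both on the plus strand. Prl2c4 is given by RefSeq as a synonym of Prl2c3.

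The 3 coding differences between Prl2c2 and Prl2c3 decide how far 3′ counts can separate the 2 genes, so the coding sequence around each is shown from GENCODE M21, with the base that differs in capitals. The first is at coding base 14, the second at coding base 200 and the last at coding base 319, counted from the A of the start codon.
Prl2c2 coding bases 1 to 34: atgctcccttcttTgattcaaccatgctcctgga
Prl2c3 coding bases 1 to 34: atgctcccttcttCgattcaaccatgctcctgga
Prl2c2 coding bases 180 to 220: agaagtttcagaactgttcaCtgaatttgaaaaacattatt
Prl2c3 coding bases 180 to 220: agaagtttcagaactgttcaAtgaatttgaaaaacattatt
Prl2c2 coding bases 299 to 339: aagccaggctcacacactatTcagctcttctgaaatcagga
Prl2c3 coding bases 299 to 339: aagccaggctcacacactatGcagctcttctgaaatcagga

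The last of these differences lies 466 bases before the end of the Prl2c2 transcript. Those last 466 bases occur whole in Prl2c3, which continues for 5 more bases. Every one of the 250 stretches of 51 bases in the last 300 bases of Prl2c2 is also found in Prl2c3, and so are 484 of 550 (88.0%) in the last 600. A read from this shared end cannot be assigned to one of the 2 genes by its sequence. How the authors' counter treated such reads was not stated in the sources used here, so the split of counts between Prl2c2 and Prl2c3 is uncertain. The level and the steps of their sum are given as well, while the values over barcodes are for each gene as counted. Prl2c5 can be separated better. It shares 8 of the 250 stretches (3.20%) with Prl2c2 and differs from it at 9 of 292 aligned bases in the last 300. The last coding bases show 1 of these 9 differences, in capitals.
Prl2c2 and Prl2c3 coding bases 616 to 675: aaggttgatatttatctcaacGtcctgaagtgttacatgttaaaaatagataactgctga
Prl2c5 coding bases 619 to 678: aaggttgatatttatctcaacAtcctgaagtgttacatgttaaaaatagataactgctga

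**Figure D1:**
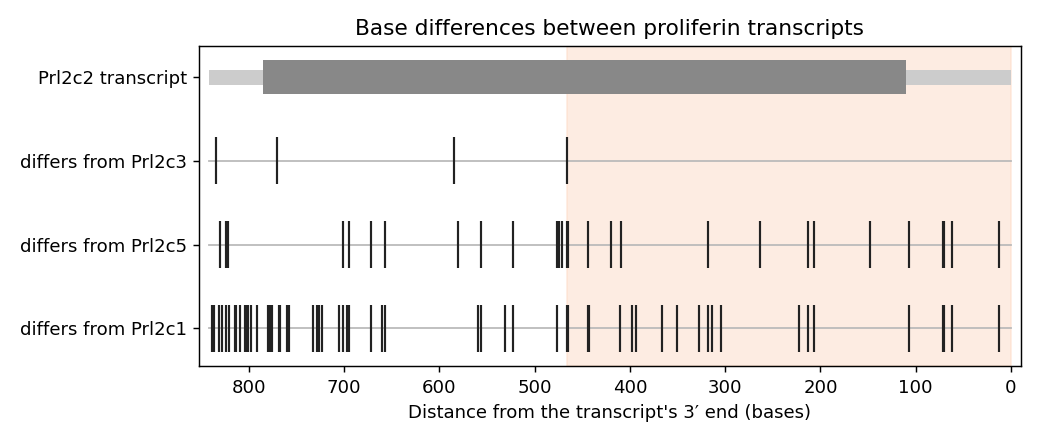
Positions at which the transcripts of Prl2c3, Prl2c5 and Prl2c1 differ from Prl2c2, plotted by distance from the 3′ end of the Prl2c2 transcript in bases; the thick bar is coding sequence, thin bars are untranslated, and each tick is 1 differing base. The shaded last 466 bases hold no difference between Prl2c2 and Prl2c3, while Prl2c5 and Prl2c1 differ from Prl2c2 within them.

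RefSeq promoters of GRCm38.p6 were matched for Prl2c3 and Prl2c5, and both are shown from 250 bases before the start. None was matched for Prl2c2, so its promoter was not examined. Whether these sequences have any part in the levels was not tested. Capitals mark matches to TGANTCA, the letters bound by AP-1, and to TATATAAG, a TATA box. Prl2c3 lies at chr13:12800080-12800329 on the minus strand and Prl2c5 at chr13:13182466-13182715 on the plus strand.
Prl2c3: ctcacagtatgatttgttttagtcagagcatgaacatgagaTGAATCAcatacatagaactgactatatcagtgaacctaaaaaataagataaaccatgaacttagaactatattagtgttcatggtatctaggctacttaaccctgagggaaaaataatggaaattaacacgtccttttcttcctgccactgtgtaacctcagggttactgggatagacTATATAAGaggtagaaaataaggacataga
Prl2c5: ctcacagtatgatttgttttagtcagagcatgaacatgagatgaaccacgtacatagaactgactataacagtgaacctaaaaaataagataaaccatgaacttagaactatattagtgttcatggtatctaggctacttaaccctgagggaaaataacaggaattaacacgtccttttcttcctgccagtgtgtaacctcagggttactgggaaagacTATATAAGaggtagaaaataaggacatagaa
The 2 windows were identical at 96.8% of 249 aligned bases. TGANTCA begins 209 bases before the start of Prl2c3 and was not found in the Prl2c5 window, while TATATAAG begins 30 and 31 bases before the starts of Prl2c3 and Prl2c5. Of 32851 RefSeq promoter windows of the same length, 6.75% hold TGANTCA and 0.935% hold TATATAAG on either strand. AGAACA, a glucocorticoid receptor half-site, CATTCC, bound by TEAD factors, GTCTAGAC, bound by SMAD proteins, and TGACGTCA, bound by CREB, and TATAAA, the common form of the TATA box, were searched on both strands as well and not found in either window; 16.1%, 12.6%, 0.167%, 1.55% and 12.4% of all windows hold them. All of these motifs were chosen with the windows already seen.

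Prl2c2 was absent from the 0 h counts, highest after 6 h with TGF-β and lower at each later time. It had 0, 2365, 8161 and 3174 counts at 0 h, 6 h, 12 h and 24 h. Its level after 6 h was 3037 CPM (95% exact Poisson interval 2916 to 3162). After 12 h it was 1435 CPM (1404 to 1466), and after 24 h 515 CPM (497 to 533). The 0 h library could miss a gene at up to 28.1 CPM, the level of 3 counts there. At 6 h Prl2c2 ranked 24 by CPM among 12473 genes with a count and took 0.304% of all counts, at 12 h it ranked 75 of 15022, and at 24 h it ranked 281 of 15663 with 0.0515% of all counts. No interval of one treated library reached that of another, so the order 6 h, 12 h, 24 h from highest to lowest exceeded counting error at every step.

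Both steps down exceeded 2-fold. The 12 h library had 0.472 times the Prl2c2 CPM of the 6 h library (95% exact conditional binomial interval 0.451 to 0.495), or 2.12-fold lower. The 24 h library had 0.359 times that of the 12 h library (0.344 to 0.374), or 2.79-fold lower, and 0.170 times that of the 6 h library, or 5.90-fold lower (5.59 to 6.22). Against the bound of 3 counts in the 0 h library, Prl2c2 was at least 108-fold higher after 6 h. The bounds after 12 h and 24 h were at least 51.1-fold and at least 18.3-fold higher. Among genes with 100 CPM in 1 or both libraries, 49.8%, 52.0% and 50.2% (of 2832, 2953 and 2875) were likewise 2-fold or more above 0 h after 6 h, 12 h and 24 h. Those 2-fold or more below it made up 34.6%, 30.9% and 33.4%.

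Among the treated libraries 2-fold differences were rarer. At 12 h against 6 h, Prl2c2 was 1 of 110 genes at least 2-fold lower, which is 4.88% of 2256 genes, and 135 (5.98%) were at least 2-fold higher; with TMM factors the split was 138 lower and 92 higher, and with DESeq2 size factors 154 lower and 78 higher. At 24 h against 12 h it was 1 of 22 genes at least 2-fold lower, which is 1.03% of 2146, with 35 (1.63%) higher, and with either set of factors 12 were lower and 47 higher. Ordered by ratio from the lowest, Prl2c2 was number 94 of 2256 at 12 h against 6 h, number 4 of 2146 at 24 h against 12 h and number 24 of 2166 at 24 h against 6 h, where 4.48% of genes were 2-fold or more lower and 5.72% higher. Since these values chose the gene, its places are given with no test. Without the 5% of barcodes with the most counts, a choice made after seeing the data, the 12 h to 6 h ratio of Prl2c2 was 0.524, above the 2-fold limit.

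Prl2c3 followed the same order of libraries at a far lower count. It had 0, 68, 93 and 43 counts at 0 h, 6 h, 12 h and 24 h, or 87.3 CPM (67.8 to 111) after 6 h. After 12 h it had 16.4 CPM (13.2 to 20.03), and after 24 h 6.97 CPM (5.05 to 9.39). Its rank among genes with a count was 2095, 7116 and 8824. It was 5.34-fold lower (3.85 to 7.38) at 12 h than at 6 h and 2.34-fold lower (1.62 to 3.45) at 24 h than at 12 h. At 6 h it was at least 3.11-fold higher than at 0 h, and at 12 h and 24 h its level was below what 3 counts in the 0 h library would give, so no fold is given. It stayed under 100 CPM in every library and is not among the genes counted at that limit.

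Summed, which avoids the uncertain split, Prl2c2 and Prl2c3 had 2433, 8254 and 3217 counts at 6 h, 12 h and 24 h, or 3124, 1451 and 522 CPM. Any reads that match both genes and that the counter left out would be missing from the sum too. The sum was 2.15-fold lower (2.06 to 2.25) at 12 h than at 6 h, 2.78-fold lower (2.67 to 2.90) at 24 h than at 12 h and 5.99-fold lower (5.68 to 6.31) at 24 h than at 6 h. These values lie within the intervals of Prl2c2 alone for both consecutive steps. Prl2c2 held nearly all of the summed counts, so this closeness is no check on the split.

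The other paralogs and prolactin itself shared the order of the treated libraries in part. Prl2c5, another proliferin-like gene, had 0, 28, 65 and 30 counts at 0 h, 6 h, 12 h and 24 h, or 36.0 CPM (23.9 to 52.0) after 6 h. It had 11.4 CPM (8.82 to 14.6) after 12 h and 4.87 CPM (3.28 to 6.95) after 24 h. It was 3.15-fold lower (1.94 to 4.97) at 12 h than at 6 h and 2.35-fold lower (1.502 to 3.75) at 24 h than at 12 h. Prl2c1 did not share that order: with 2, 27 and 5 counts at 6 h, 12 h and 24 h, its CPM was highest at 12 h, and its ratio at 12 h over 6 h of 1.85 had an interval of 0.464 to 16.04. Prl, the pituitary hormone gene, is 63.2% identical to Prl2c2 over aligned transcript bases and shares no stretch of 51 bases with it. It had 0, 52, 132 and 100 counts at 0 h, 6 h, 12 h and 24 h, or 66.8 CPM (49.9 to 87.6), 23.2 CPM (19.4 to 27.5) and 16.2 CPM (13.2 to 19.7) in the treated libraries. Prl was 2.88-fold lower (2.05 to 3.99) at 12 h than at 6 h and 1.43-fold lower (1.10 to 1.87) at 24 h than at 12 h. Of 22 other prolactin family genes sought, 7 are in the table, and the 6 besides Prl had at most 3 counts in any library.

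Prl2c2 made up nearly all proliferin counts. Of the counts of Prl2c1, Prl2c2, Prl2c3 and Prl2c5 together, it held 96.0% of 2463 at 6 h, 97.8% of 8346 at 12 h and 97.6% of 3252 at 24 h. Placental markers did not accompany it. Of 15 trophoblast giant cell markers, 3 are in the table, and they had 1, 0, 2 and 6 counts in all at 0 h, 6 h, 12 h and 24 h. The sum over these 3 markers was 0.973 CPM at its highest treated level, at 24 h, where Prl2c2 was at its lowest treated level.

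**Figure D2:**
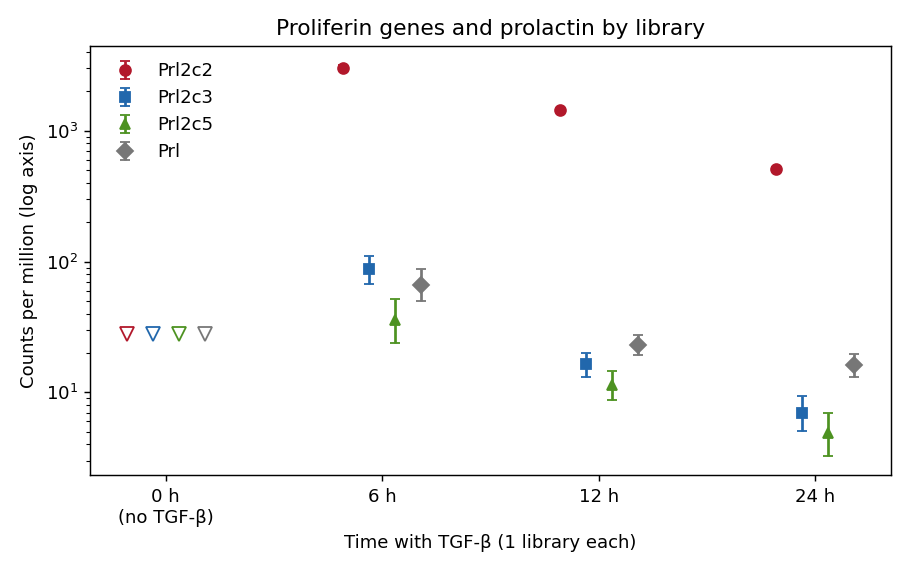
Level of Prl2c2, Prl2c3, Prl2c5 and Prl in each library, in CPM on a log axis, by hours with TGF-β; filled points are levels with 95% exact Poisson intervals, and open triangles at 0 h mark the 28.1 CPM that 3 counts would give, since none was counted. Among the treated libraries, each of the 4 genes is highest at 6 h and lowest at 24 h.

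Proliferin is secreted, so genes for its receptor, for sorting and for the receptors of proteins it resembles were listed. Igf2r, the receptor that binds proliferin and carries mannose 6-phosphate proteins to lysosomes, had 6, 11, 157 and 133 counts, or 56.2, 14.1, 27.6 and 21.6 CPM, at 0 h, 6 h, 12 h and 24 h. M6pr, the smaller mannose 6-phosphate receptor, was at 84.2, 116, 93.0 and 79.8 CPM. Prlr, the prolactin receptor, had 6, 1, 1 and 4 counts. Ghr, the growth hormone receptor, was at 403, 243, 330 and 464 CPM. At 24 h against 12 h, 0 of the 5 measured genes of this receptor and sorting list were 1.5-fold higher or lower, where 3.14% of all genes measured were higher and 5.95% lower, and their median log2 ratio was -0.13, beside -0.11 over all 6469 genes with a mean of 20 CPM or more. At 12 h against 6 h, 1 of 4 measured, Igf2r, was 1.5-fold higher, where 23.1% of all genes measured were. Counts from 3′ ends were not scaled by gene length. Whether molecular identifiers were collapsed, and how reads that match several genes were treated, is not stated. Ranks by CPM and shares between genes therefore describe counts captured and not relative amounts of transcript.

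In single barcodes the fraction with Prl2c2 and the number of counts per barcode were both lower at later times. Because depth differed, each barcode was thinned to 500 counts and shallower barcodes were left out, which removed 101, 524, 158 and 325 barcodes at 0 h, 6 h, 12 h and 24 h. Prl2c2 was then seen in 0 of 91 barcodes at 0 h, which allows a share of up to 3.30% at 3 barcodes and 3.97% by the exact binomial interval, in 73 of 134 (54.5%, exact binomial interval 45.7 to 63.1) at 6 h, in 433 of 962 (45.0%, 41.8 to 48.2) at 12 h and in 212 of 1003 (21.1%, 18.6 to 23.8) at 24 h. The 6 h and 12 h intervals overlap, and the 24 h interval lies below both. Barcodes with Prl2c2 held a mean of 2.07, 1.54 and 1.37 of its counts at 6 h, 12 h and 24 h. Before thinning, the same barcodes had a median depth of 1232, 4682 and 4814 counts, and 75.4%, 87.1% and 65.1% of them held Prl2c2, so the unthinned shares put 12 h above 6 h. The treated libraries held no cell type known to lack the gene, so the share that free RNA in the droplets would give was not measured.

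At other depths the order was the same. Thinned to 250 counts, which keeps 628, 1085 and 1283 barcodes, the shares with Prl2c2 were 50.2%, 30.9% and 11.3% at 6 h, 12 h and 24 h. Thinned to 1000 counts, which keeps 80, 865 and 933 barcodes, they were 78.8%, 67.3% and 33.4%. Prl2c3 at 500 counts was seen in 5 of 134 barcodes (3.73%, 1.22 to 8.49) at 6 h, in 11 of 962 (1.14%, 0.572 to 2.04) at 12 h and in 3 of 1003 (0.299%, 0.0617 to 0.872) at 24 h, where the neighbouring intervals overlap and those of 6 h and 24 h do not.

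The 6 h library consists mostly of shallow barcodes, so Prl2c2 was also summed by depth. In 524 barcodes with fewer than 500 counts it was at 3115 CPM (2851 to 3397) at 6 h, and in the 38 barcodes with 4000 or more it was at 3178 CPM (3024 to 3338). Barcodes of at least 500 and under 1000 counts were lower, at 1700 CPM (1306 to 2174), and those of at least 1000 and under 4000 counts were at 2582 CPM (2232 to 2973). At 12 h the 4 depth classes, from shallow to deep, had 1364, 1306, 1576 and 1414 CPM, and at 24 h they had 448, 764, 589 and 501 CPM. In each depth class the 6 h level was above the 12 h level and the 12 h level above the 24 h level, though the 6 h and 12 h intervals overlap in the class from 500 to under 1000 counts.

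Among barcodes with 1000 counts or more, Prl2c2 ranged widely at each time. Its median over barcodes was 2268, 1217 and 292 CPM at 6 h, 12 h and 24 h. The middle 50% of barcodes lay between 949 and 3768 CPM at 6 h, between 628 and 2015 CPM at 12 h and between 0 and 717 CPM at 24 h, and the highest barcode had 14803, 8680 and 5743 CPM. Barcodes with none numbered 11 of 80 (13.8%), 73 of 865 (8.44%) and 300 of 933 (32.2%). The ranges of the 3 libraries overlapped.

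After thinning to 1000 counts the spread could be compared with that of other genes. The Fano factor, the variance of the counts over their mean, was 3.32, 1.94 and 1.73 for Prl2c2 at 6 h, 12 h and 24 h, against a median of 1.06, 1.03 and 1.02 over the 1874, 2044 and 1916 genes at 100 CPM or more, where 1 is the value of counting error alone. Prl2c2 ranked 9, 8 and 6 from the highest. Its mean thinned count was 2.575, 1.51 and 0.548, and the Fano factor of an unevenly spread gene falls with its mean. The factors and ranks therefore depend on level as well as on unevenness. For Prl2c2 the standard deviation over the mean was 1.14, 1.13 and 1.78, a measure that counting error raises at low means. Thinned to 2000 counts, which keeps 50, 733 and 822 barcodes, its Fano factor was 2.84, 2.45 and 2.28 and its rank 26, 8 and 10, so the rank at 6 h depends on the depth. At 1000 counts, the genes above it at 24 h were Malat1, mt-Rnr2, Timp3, Ccl2 and Ctla2a. At 24 h the top 10% of barcodes held 51.7% of the Prl2c2 counts, against 35.6% at 12 h and 33.0% at 6 h. The barcodes that held 50% of its counts were 9.65% at 24 h, 17.0% at 12 h and 16 of 80 at 6 h. Counting error alone makes counts more concentrated as the mean count falls, and the part of the lower mean was not tested. Barcodes with no count after thinning made up 21.2%, 32.7% and 66.6% at 6 h, 12 h and 24 h, and those with 5 or more made up 17.5%, 6.01% and 0.857%. Thinned Prl2c3 counts numbered only 6, 18 and 7, so its Fano factors of 1.27, 1.203 and 0.994 are of little precision.

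**Figure D3:**
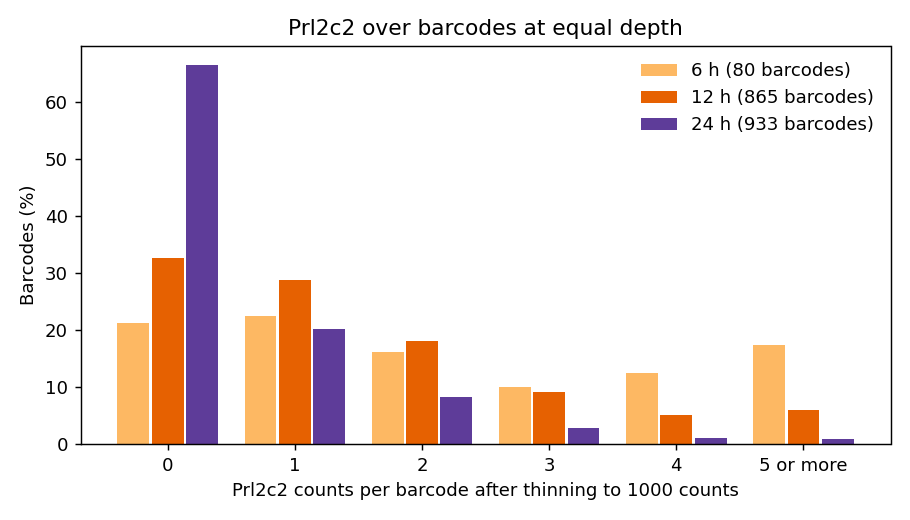
Share of barcodes, in percent, by the number of Prl2c2 counts left after thinning barcodes of 1000 counts or more to 1000 counts, for the 6 h, 12 h and 24 h libraries. Barcodes with 0 counts make up 21.2% at 6 h, 32.7% at 12 h and 66.6% at 24 h, and those with 5 or more make up 17.5%, 6.01% and 0.857%.

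Whether the paralog counts move together was asked across libraries and across barcodes. Across libraries, Prl2c3 held 2.79% (2.18 to 3.53) of the Prl2c2 and Prl2c3 counts at 6 h, 1.13% (0.910 to 1.38) at 12 h and 1.34% (0.969 to 1.80) at 24 h. The 6 h share was above both others, and the 12 h and 24 h intervals overlap. In barcodes with 1000 counts or more the shares were 2.35%, 1.13% and 1.31%. No intervals were made for these, so a 6 h share above the others beyond counting error is shown only over all barcodes. Prl2c5, set against Prl2c2 in the same way, held 1.17% (0.779 to 1.69), 0.790% (0.610 to 1.01) and 0.936% (0.633 to 1.33) of their joint counts, with intervals that overlap. Of the Prl2c3 and Prl2c5 counts alone, Prl2c3 held 70.8%, 58.9% and 58.9%.

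Barcodes with 1000 counts or more were also ordered by their Prl2c2 CPM alone and divided into terciles of equal size. In the lowest, middle and highest tercile, Prl2c3 was at 0 CPM (interval up to 27.3), 58.0 CPM and 127 CPM (86.7 to 179) at 6 h. At 12 h it was at 6.67 CPM (3.33 to 11.9), 13.0 CPM (8.59 to 19.0) and 28.7 CPM (21.5 to 37.6), and at 24 h at 3.18 CPM (1.03 to 7.43), 1.68 CPM (0.457 to 4.29) and 15.5 CPM (10.6 to 21.9). At each time the highest tercile by Prl2c2 was thus also the highest by Prl2c3, beyond counting error against the lowest tercile. Over all barcodes, 1 barcode held 8 of 68 Prl2c3 counts at 6 h, 7 of 93 at 12 h and 3 of 43 at 24 h. The intervals do not cover such clumping and are too narrow where it occurs. Reads from the shared end fit both genes, and the part of their assignment in the order of terciles was not tested. From the lowest to the highest tercile, Prl2c5 was at 7.39, 36.9 and 51.5 CPM at 6 h, 4.85, 12.1 and 16.3 CPM at 12 h and 1.27, 5.03 and 7.28 CPM at 24 h. Prl was at 37.0, 42.2 and 87.1 CPM at 6 h, 15.2, 23.7 and 29.3 CPM at 12 h and 8.92, 16.8 and 19.4 CPM at 24 h. At 24 h the lowest and middle terciles were thus ordered otherwise by Prl2c3 than by Prl2c5 and Prl, with overlapping intervals for Prl2c3. The lowest tercile also had the lowest median depth at each time (1660, 4641 and 3919 counts at 6 h, 12 h and 24 h, against 4511, 6409 and 6228 in the middle tercile), and its part in these orders was not tested.

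The share of Prl2c3 had overlapping intervals between terciles, except for the lowest tercile at 24 h. At 6 h it was 0% (up to 3.27), 1.95% (0.978 to 3.46) and 2.76% (1.90 to 3.88) from the lowest to the highest tercile. At 12 h it was 1.55%, 1.06% and 1.10% in the same order. At 24 h the middle and highest terciles had 0.607% (0.166 to 1.55) and 1.30% (0.892 to 1.83), while the lowest tercile had 5 Prl2c3 counts among 16 (31.2%, interval 11.02 to 58.7). That tercile was chosen for low Prl2c2, which raises the share by itself. Ordered by the sum of both genes, the lowest tercile held 0 Prl2c3 counts. At 24 h 300 of 933 barcodes held no Prl2c2, so this second order moves barcodes with Prl2c3 out of the lowest 311. Its 0 is therefore no check on the share. At 24 h the highest tercile, 311 barcodes with 1177 CPM of Prl2c2, held 2426 of the gene's counts.

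**Figure D4:**
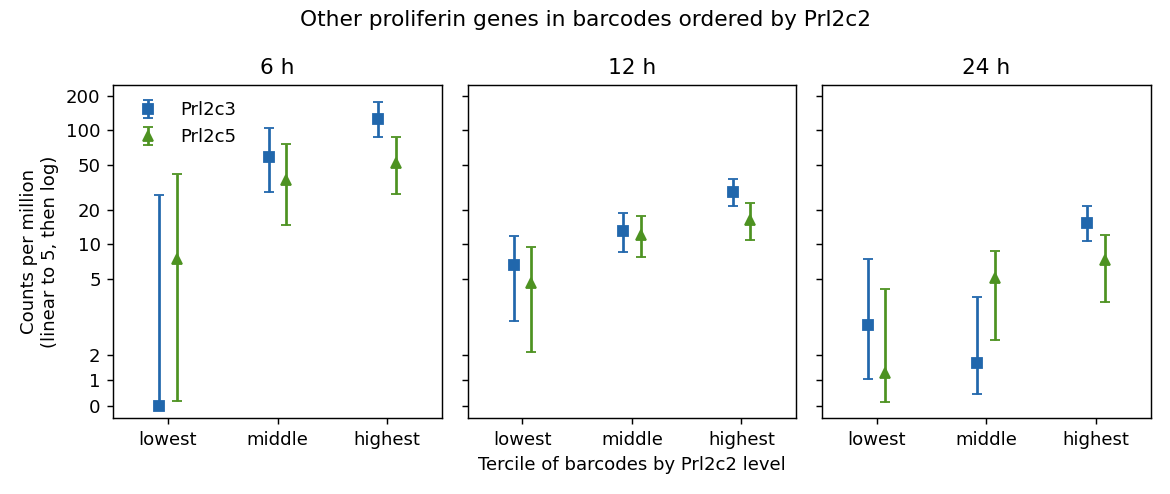
Level of Prl2c3 and Prl2c5, in CPM on an axis that is linear to 5 and then logarithmic, in terciles of the barcodes with 1000 counts or more ordered by Prl2c2, at 6 h, 12 h and 24 h; points are pooled levels and bars are 95% exact Poisson intervals. In the highest tercile Prl2c3 reaches 127, 28.7 and 15.5 CPM at 6 h, 12 h and 24 h, above the lowest tercile each time.

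In barcodes of 1000 counts or more that held Prl2c3, Prl2c2 was present in 18 of 18 at 6 h, 66 of 66 at 12 h and 28 of 32 at 24 h, against 86.2%, 91.6% and 67.8% of all such barcodes. Those with Prl2c3 were also deeper, with a median of 15109, 7642 and 8132 counts against 3476, 5231 and 5237. At an equal 1000 counts the Pearson correlation of Prl2c2 with Prl2c3 over barcodes was 0.54 at 6 h (80 barcodes), 0.07 at 12 h (865) and 0.09 at 24 h (933), and the Spearman correlation was 0.30, 0.08 and 0.06. Only 5, 16 and 7 barcodes held a Prl2c3 count, and at 2000 counts the Pearson correlation at 6 h was 0.23, so no relation between the genes within barcodes can be read from these values.

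The steps of Prl2c2 were next set beside lists of genes. The AP-1, glucocorticoid receptor and angiogenic lists have the ties to proliferin given above. For the cell cycle, collagen and contractile lists no tie is claimed. List members were counted at 1.5-fold among genes with a mean of 20 CPM or more. Over all such genes 23.1% were higher and 9.14% lower at 12 h against 6 h (median log2 ratio 0.15), and 3.14% were higher and 5.95% lower at 24 h against 12 h (median -0.11). TMM and DESeq2 factors move every log2 ratio by -0.12 and -0.17 in the first comparison and by 0.12 and 0.13 in the second, so list medians nearer to 0 than that have no fixed sign.

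Genes of the G2 and M phases, like Prl2c2, were lower at both steps. Of the G2 and M phase list, 24 of 25 measured genes were lower and 0 higher at 12 h against 6 h (median log2 ratio -1.40), and 15 of 17 were lower and 0 higher at 24 h against 12 h (median -1.73). Mki67, a protein of dividing cells' chromosomes, was at 56.2, 223, 58.4 and 7.62 CPM at 0 h, 6 h, 12 h and 24 h. Hmmr, Tpx2, Ccnb2 and Cenpf, which act on the spindle, the mitotic kinase and the kinetochore, were at 235, 148, 88.6 and 186 CPM at 6 h, and at 6.16, 4.38, 5.68 and 6.32 CPM at 24 h. Of S phase genes, 8 of 13 were lower at 12 h against 6 h (median -0.84) and 2 of 8 at 24 h against 12 h, where their median of -0.16 was near that of all genes. Rrm1, a subunit of the enzyme that makes deoxynucleotides, was at 119, 49.9 and 25.1 CPM at 6 h, 12 h and 24 h.

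AP-1 subunits, known activators of the proliferin promoter, did not share the course as a group. At 12 h against 6 h, 3 of 8 were higher and 2 lower, and at 24 h against 12 h 0 were higher and 3 lower (median -0.20). Junb was at 0, 36.0, 130 and 42.0 CPM at 0 h, 6 h, 12 h and 24 h, highest at 12 h. Fosl1, which encodes the subunit FRA-1, was at 52.6, 34.1 and 22.1 CPM at 6 h, 12 h and 24 h, in the order of Prl2c2, with 1.54-fold (1.07 to 2.17) and 1.55-fold (1.24 to 1.94) lower steps. Jun was at 56.5, 48.0 and 31.9 CPM. Of MAPK feedback genes, which read out growth factor signalling, 0 were higher and 1 of 9 was lower at 12 h against 6 h, and 0 were higher and 3 of 8 lower at 24 h against 12 h (median -0.33). The 3, Dusp4, Dusp5 and Spred2, were 1.77-, 1.71- and 1.54-fold lower.

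Glucocorticoid receptor genes and targets summed to 1367, 543, 616 and 606 CPM at 0 h, 6 h, 12 h and 24 h. Nr3c1, the receptor, was at 103, 73.2, 109 and 111 CPM. Of the list, 1 of 7 was higher and 1 lower at 12 h against 6 h (median 0.24), which were Klf9, a transcription factor, 2.17-fold higher (1.46 to 3.37), and Per1, a clock gene. At 24 h against 12 h 1 of 5, Errfi1, an inhibitor of EGF receptor signalling, was 1.70-fold higher (1.48 to 1.97) and 0 were lower (median -0.04). Of TGF-β targets and feedback genes, 9 of 15 were higher and 1 was lower at 12 h against 6 h (median 0.65), while 1 was higher and 5 lower at 24 h against 12 h (median -0.22). Smad7, the inhibitory SMAD, was at 86.0, 88.8 and 50.4 CPM at 6 h, 12 h and 24 h. Of angiogenic factors, to which proliferin belongs by function, 5 of 10 were higher and 0 lower at 12 h against 6 h, and 0 were higher and 2 lower at 24 h against 12 h. These 2 were Vegfa, at 61.6, 166 and 52.7 CPM at 6 h, 12 h and 24 h, and Angptl2, at 15.4, 55.0 and 25.6 CPM.

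Of collagens, 9 of 11 were higher and 0 lower at 12 h against 6 h (median 1.08), and 2 of 12 were higher and 2 lower at 24 h against 12 h (median -0.10). Col3a1, a fibrillar collagen, was at 26.96, 173 and 428 CPM at 6 h, 12 h and 24 h, while Col7a1 and Col6a1 were the 2 lower at 24 h. Of contractile genes, 3 of 12 were higher and 3 lower at 12 h against 6 h (median 0.19), and 3 of 12 were higher and 0 lower at 24 h against 12 h (median 0.34). Acta2, smooth muscle actin, was at 603, 112 and 404 CPM at 6 h, 12 h and 24 h, and Myl6, a myosin light chain, was at 1635, 566 and 1194 CPM. At 12 h against 6 h these were 5.38-fold (4.77 to 6.07) and 2.89-fold (2.71 to 3.08) lower, a step in the direction of Prl2c2, and at 24 h against 12 h both were higher.

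By distance in centred log2 CPM over the 3 treated libraries, the 5 genes nearest to Prl2c2 among 1578 at 100 CPM or more in each included Denr (0.61), Nid1 (0.65), Ezh2 (0.79) and Txnrd1 (0.83). Denr, a translation reinitiation factor, was at 1628, 771 and 463 CPM at 6 h, 12 h and 24 h, and Nid1, a basement membrane protein, was at 570, 398 and 181 CPM. Prl2c3 itself lay at a distance of 1.00. Over barcodes, the correlations of 725 genes with Prl2c2, averaged over 12 h and 24 h, ranged only from -0.09 to 0.11, with a median near 0. The highest were Ftl1 (0.11), Ccnd1 (0.10), S100a6 (0.09), Hnrnpm (0.08) and Vim (0.08), and the lowest were Cald1, Fstl1 and Actb (-0.09, -0.08 and -0.08). These are weak in sparse counts and are no finding.

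Within a library, Prl2c2 was last compared between barcodes with and without a count of each list, thinned to 1000 counts. Barcodes with a G2 or M phase count had 2960 CPM of Prl2c2 against 1933 CPM in those without at 6 h (ratio 1.53, 1.12 to 2.11), 1653 against 1403 CPM at 12 h (1.18, 1.06 to 1.32) and 493 against 572 CPM at 24 h (0.862, 0.705 to 1.05). At 12 h the 39 barcodes with Mki67 had 2308 CPM, against 1471 CPM in the 826 without (1.57, 1.25 to 1.94). At 24 h, barcodes with Acta2 had 419 CPM of Prl2c2, against 585 CPM in those without (0.716, 0.563 to 0.903), and barcodes with Col3a1 had 435 CPM, against 599 CPM (0.726, 0.589 to 0.890). Other matrix genes did not share this at 24 h beyond counting error. The ratio was 1.11 (0.920 to 1.33) for Col1a1, 1.24 (0.797 to 2.05) for Fn1 and 0.863 (0.722 to 1.03) for Timp1. Acta2 did not keep 1 direction, with a ratio of 1.21 (1.01 to 1.44) at 12 h.

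For AP-1 subunits the ratio was 1.91 (1.43 to 2.55) at 6 h, 1.02 (0.911 to 1.14) at 12 h and 1.21 (1.01 to 1.46) at 24 h. Other lists changed direction with time. For TGF-β targets the ratio was 2.03 (1.37 to 3.13), 0.756 (0.615 to 0.938) and 1.41 (1.03 to 1.98), and for angiogenic factors 1.69 (1.16 to 2.51), 0.688 (0.566 to 0.843) and 0.624 (0.478 to 0.827). For collagens it was 2.21 (1.57 to 3.16) at 6 h and 0.654 (0.504 to 0.865) at 12 h. Every list plotted had a ratio above 1 at 6 h, where only 80 barcodes were deep enough. In these barcodes the Fano factors of Oip5 and Malat1 were 604 and 111, while the highest at 12 h was 16.2. The part of such uneven transcripts in the 6 h values over barcodes was not tested. Prl2c2 counts vary between barcodes by more than counting error, so these intervals are too narrow.

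**Figure D5:**
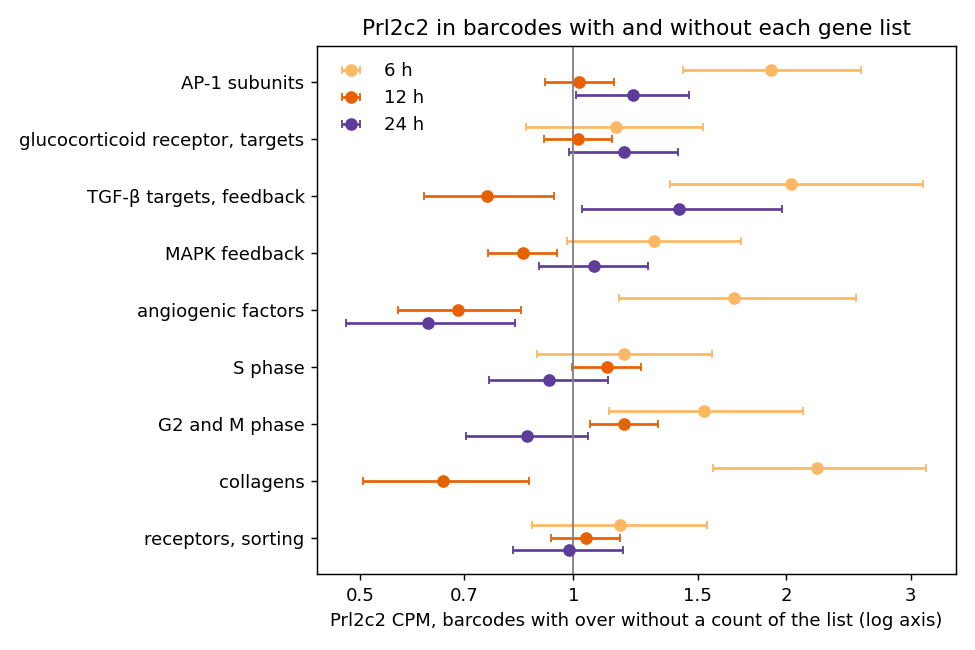
Ratio of the Prl2c2 level in barcodes with a count of a gene list over barcodes without one, on a log axis, after thinning to 1000 counts, at 6 h, 12 h and 24 h; points are ratios of CPM and bars are 95% exact conditional binomial intervals, drawn where both sets hold at least 20 barcodes. For G2 and M phase genes the ratio is 1.53 at 6 h, 1.18 at 12 h and 0.862 at 24 h.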

How the data were processed

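The authors' deposited table gives raw counts for every gene in every barcode, and column names give the library. The sources used here do not say whether molecular identifiers were collapsed, so the values are called counts. STAR 2.5.3a and the build mm10 are named in the submitters' processing notes. The counter, its annotation, strand setting and treatment of reads that match several genes are not stated there. All 3298 barcodes were used. The fewest genes in a barcode were 200, the highest mitochondrial share was 4.99%, and doublets were not called. Barcodes 1 base away from another of their library numbered 0, 18, 257 and 277 at 0 h, 6 h, 12 h and 24 h and were not merged.

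Sums over all barcodes of a library were converted to CPM. Intervals are 95% exact Poisson for levels, exact conditional binomial for ratios and exact Clopper-Pearson for shares. Log2 ratios of lists and of all genes use CPM plus 10. A gene with no count in a library was bounded by the level of 3 counts there. Thinning was 1 draw without replacement with a fixed seed. No test was made, because each time point has 1 library. The 2 genes, the gene lists and the rules for naming genes (up to 4 members per list with the largest log2 ratio at 24 h over 12 h, the 5 genes nearest to Prl2c2 over libraries, the 5 highest and 3 lowest by correlation over barcodes, and a few set by name) were chosen with earlier results of these data known. A gene that these rules name is not reported here. Alternatives were TMM (edgeR 4.0.16) and DESeq2 1.42.0 size factors, totals without 83 ribosomal protein and 27 mitochondrial genes, other barcode sets, weights, depths and limits. The ratio and limit code was tested on simulated data. Transcript sequences and positions are from GENCODE M21 and promoters from RefSeq GRCm38.p6. The other software was R 4.3.3 and Python 3.11.15 with scipy 1.17.1, pandas 2.3.3, numpy 2.4.6 and matplotlib 3.10.9.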

Additional observations from a re-analysis of the deposited data

How the results depend on the processing

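Of 101 alternatives over 28 results, 73 stayed within the error of the value reported or within 1.5 times a count or Fano factor. The other 28 moved. A reversal was looked for only in CPM ratios and correlations, and none of these reversed. The balance of genes 2-fold higher and lower did turn in some alternatives. From 135 higher and 110 lower at 12 h over 6 h, it went to 92 and 138 with TMM factors. With DESeq2 factors it went to 78 and 154. At 24 h over 12 h it went from 35 and 22 to 51 and 53 at 50 CPM. The Prl2c2 ratio at 12 h over 6 h was 0.435 with TMM factors, 0.419 with DESeq2 size factors, 0.442 with totals without mitochondrial and ribosomal protein genes, and 0.524 without the 5% of barcodes with the most counts. At 24 h over 12 h it was 0.391, 0.393 and 0.375 under the first 3 of these. Thinning to 1000 counts put the share of barcodes with Prl2c2 at 78.8%, 67.3% and 33.4% at 6 h, 12 h and 24 h, since deeper barcodes show more genes. The Fano factor of Prl2c3 at 6 h was 2.63 at 2000 counts, from 7 counts. The correlation of Prl2c2 with Prl2c3 was 0.23 at 2000 counts and 0.36 on a log scale at 6 h, and 0.17 at 2000 counts at 24 h. Genes at least 2-fold higher at 12 h over 6 h numbered 301 at 50 CPM, 58 at 200 CPM, 409 at 1.5-fold and 78 with DESeq2 factors, and those lower 175, 54 and 245 under the first 3. At 24 h over 12 h, 23 were higher at 200 CPM and 104 at 1.5-fold, and 53, 9 and 94 were lower at 50 CPM, 200 CPM and 1.5-fold, with 12 lower under TMM and under DESeq2 factors. Apart from thinning and the limits on genes, the cause was not tested. No paired analysis was possible because each time point has 1 library. Depth limits Prl2c3, with 43 to 93 counts per treated library, and a gene with no count at 0 h could still have been at up to 28.1 CPM there.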
